A study of Mus musculus with 6 samples.

Results

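The genes described here are 10 members of the platelet programme: Pf4, Itga2b, Itgb3, Gp5, Gp6, Gp9, Treml1, Vwf, Clec1b and Plek, whose products act on platelets and on megakaryocytes, the marrow cells that shed platelets. They are a fixed list of names, and the rule uses no measured value. Each was read from the probe set annotated to that gene alone, and all 10 were found among the 22180 genes measured. Every member had exactly 1 such probe set. A further probe set annotated jointly to Clec1b and a neighbouring gene was not used.

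The cells were lineage-negative, Sca1-positive, cKit-positive (LSK) bone marrow cells, the sorted fraction that holds stem cells and multipotent progenitors. They came from mice given Tifab+/+ marrow (3 arrays, here wild type) or Tifab-/- marrow (3 arrays, here knockout), with 3 mice per group by the labels. Both groups share transplantation into lethally irradiated syngeneic Boy/J recipients (7 Gy, then 4.75 Gy 3 hours later). The labels' 3 months could be the age of the mice or the time since transplantation. They name no strain for the donors and do not say whether donor-derived cells were selected in the sort. The question posed was how the LSK transcriptome differs between the genotypes before overt failure of blood formation. Values are log2 probe set signals from Affymetrix MoGene 2.0 ST arrays, and a difference is knockout minus wild type in log2 units.

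A platelet sticks to a damaged vessel when its glycoprotein Ib-IX-V complex catches von Willebrand factor. Collagen then signals through glycoprotein VI, and the integrin αIIbβ3 switches on, binds fibrinogen and links platelets to each other. Granules meanwhile release their contents. In LSK cells some of these genes are transcribed long before any platelet exists: Vwf and Itga2b (CD41) mark stem cells primed towards the megakaryocyte lineage.

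The 8 measured LSK markers lay at percentiles 65.4 (Slamf1) to 99.4 (Cd34) of mean signal among all genes, with Kit at 98.5. Of 7 lineage antigens 5 were measured, at percentiles 34.0 to 70.7, with Itgam (CD11b) highest and above Slamf1. The neutrophil gene S100a8, at 99.8, had a mean log2 signal of 11.5 and was brighter than Kit at 9.56. The monocyte gene Lyz2, at 98.3, was about as bright as Kit, with 9.46. These percentiles place probe sets in the signal range and do not rank transcripts. The Tifab probe set did not separate the groups (difference -0.10 ± 0.18, SE, adjusted p = 0.885 in limma), and so it cannot check the labels on which the directions given here depend. The model behind all adjusted p-values was fitted over the 22180 genes with limma and Benjamini-Hochberg adjustment, at a threshold of 0.05. By that threshold 0 genes were called (0.0%). An unadjusted p under 0.05 was reached by 2274 genes (10.3%), of which 1222 were lower in the knockout (5.51%) and 1052 higher (4.74%). Centring each array on its median turned that split into 1843 lower and 671 higher.

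None of the 10 members passed the adjusted threshold. Gp5 and Treml1 had an unadjusted p under 0.05 and were lower in the knockout, 2 of 10 where 5.51% of all genes did so. Of the other members 0 passed on the higher side and 8 on neither, and no test was made of the list. By sign alone, 6 members were lower and 4 higher, beside 11088 lower genes of 22180. This 6 to 4 split was the same after quantile normalization, median centring and cyclic loess. The median difference over the members was -0.041, against 5.9e-05 over all genes. It was -0.058 after quantile normalization (0.0028 over all genes), -0.096 after median centring (-0.055 over all genes) and -0.063 after cyclic loess (1.7e-05 over all genes). With 1 array left out it ran from -0.12 (wild-type replicate 3) to 0.0074 (wild-type replicate 1), and only the latter turned its sign. Fewer cells of a type and less RNA per cell cannot be told apart in such bulk samples.

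**Figure D1:**
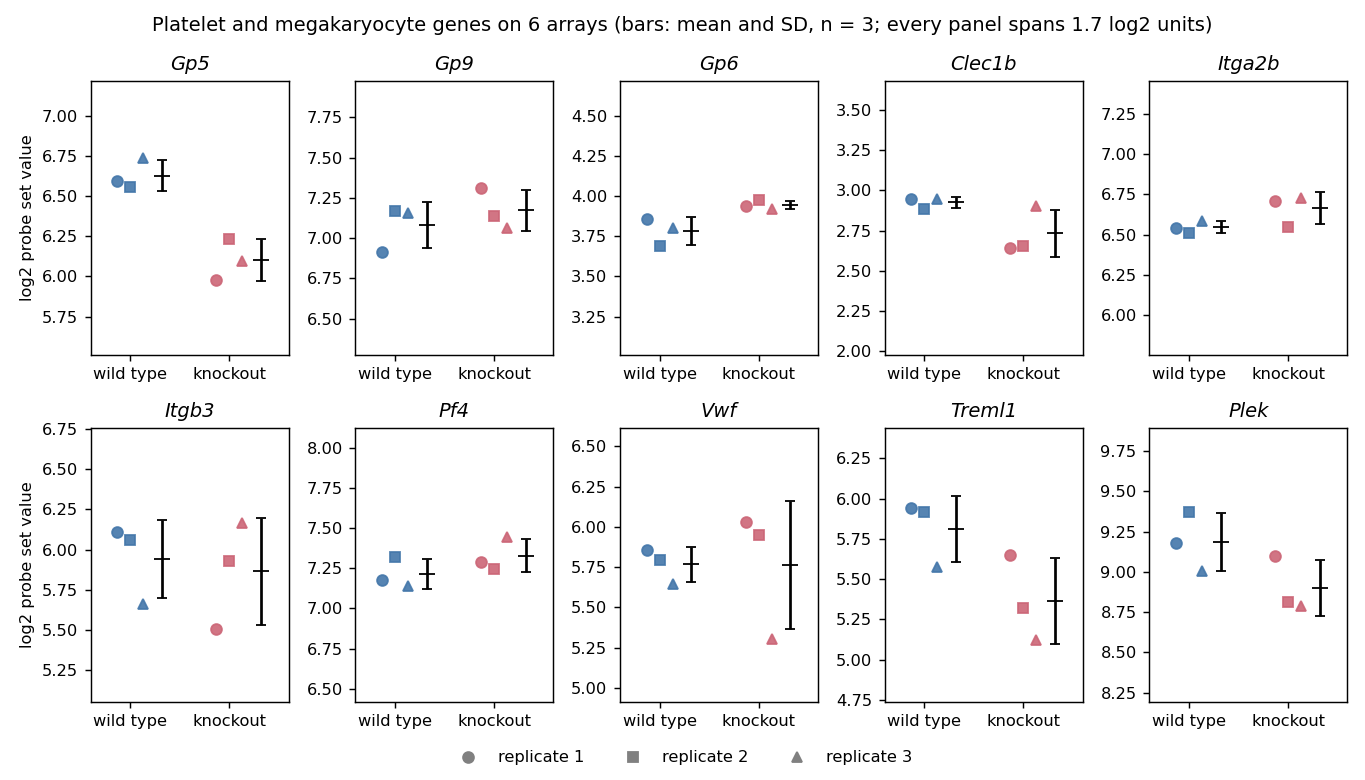
Log2 probe set value (vertical axis) of each member on the 3 wild-type arrays (blue) and the 3 knockout arrays (red), with marker shape giving the replicate number and black bars the mean and SD (n = 3). Every panel spans 1.7 log2 units; Gp5 is the member whose knockout arrays all lie below the wild-type arrays, and Vwf and Itgb3 are spread most widely in the knockout.

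The receptor for von Willebrand factor is built from glycoproteins Ibα, Ibβ, IX and V. Of its genes Gp5 and Gp9 were measured alone, and Gp1ba and Gp1bb were not analysed here. Gp5 encodes glycoprotein V, a leucine-rich repeat protein that thrombin cleaves from the platelet surface. It read 6.59, 6.55 and 6.73 in the wild-type arrays and 5.98, 6.23 and 6.10 in the knockout arrays. All 3 knockout arrays lay below all 3 wild-type arrays, which 8.37% of all genes also showed in this direction. The means were 6.63 ± 0.095 and 6.10 ± 0.13 (SD, n = 3 each), a difference of -0.52 ± 0.15 (SE), or 69.5% of the wild-type signal. The 95% confidence interval ran from -0.86 to -0.19, and the adjusted p was 0.351 in limma (unadjusted p = 0.00612, rank 385 of 22180 genes). The unadjusted p stayed under 0.05 with each of the 6 arrays left out in turn, with differences of -0.59 to -0.46.

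Gp9 encodes glycoprotein IX, the small subunit without which the complex does not reach the cell surface. It read 6.92, 7.17 and 7.16 in the wild-type arrays and 7.31, 7.14 and 7.07 in the knockout arrays. The groups overlapped, since wild-type replicate 1 was the lowest array and knockout replicate 1 the highest. The difference was 0.091 ± 0.15 (SE), with an interval of -0.24 to 0.42 (adjusted p = 0.867 in limma). Without wild-type replicate 1 it came to 0.0094. The intervals of Gp5 and Gp9 overlap between -0.24 and -0.19, and the difference between these partners was not tested.

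Because Gp5 had the clearest separation and its partner Gp9 had none, their promoters are shown next to each other. Each is the 250 bases before the RefSeq transcription start (GRCm38.p6), read 5′ to 3′ on the gene's strand, at chr16:30310782-30311031 (minus strand) for Gp5 and chr6:87777820-87778069 (plus strand) for Gp9. Capitals mark matches to motifs of the factor families that drive megakaryocyte genes: for GATA factors AGATAA, with T also allowed as its first base and G as its last, and for ETS factors AGGAAG, with C also allowed as its first base, on either strand. No match of one family overlapped a match of the other.
Gp5: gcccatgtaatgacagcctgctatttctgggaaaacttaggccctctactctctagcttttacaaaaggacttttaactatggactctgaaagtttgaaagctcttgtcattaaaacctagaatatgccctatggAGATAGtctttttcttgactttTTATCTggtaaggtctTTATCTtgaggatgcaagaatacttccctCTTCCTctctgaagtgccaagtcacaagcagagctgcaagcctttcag
Gp9: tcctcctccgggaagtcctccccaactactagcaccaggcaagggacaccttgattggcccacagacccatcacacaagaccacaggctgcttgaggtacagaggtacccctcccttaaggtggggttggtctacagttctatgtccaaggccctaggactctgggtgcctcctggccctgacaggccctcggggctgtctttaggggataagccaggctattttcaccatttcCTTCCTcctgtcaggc
The Gp5 window held 3 GATA matches, which begin 115, 93 and 77 bases before the start, and 1 ETS match beginning 48 bases before it. The Gp9 window held 1 ETS match, beginning 16 bases before the start, and no GATA match. Of 32851 mouse promoter windows of this length, 26.5% held a GATA match, 39.2% an ETS match and 9.21% both. A match of letters is not a measured binding site. Promoter windows were at hand for 8 of the 10 members. Gp5 alone among them had both motifs, 3 had a GATA match (Gp5, Gp6 and Clec1b) and 4 an ETS match (Pf4, Itga2b, Gp5 and Gp9).

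Collagen and podoplanin each have a platelet receptor that signals through the kinase Syk. Gp6 encodes glycoprotein VI, the collagen receptor, which pairs with the Fc receptor γ chain. It measured 3.86, 3.69 and 3.80 in the wild-type arrays and 3.94, 3.97 and 3.92 in the knockout arrays. The knockout arrays were all higher, as 7.75% of all genes were. The step was small, 0.16 ± 0.14 (SE), with an interval of -0.16 to 0.48 (adjusted p = 0.721 in limma). Gp6 lay at percentile 39.9 of signal, where the array separates expression from background poorly.

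Clec1b encodes CLEC-2, the podoplanin receptor, found on platelets and megakaryocytes and also on some myeloid cells. It was the dimmest member, at percentile 17.5 of signal, with 2.95, 2.89 and 2.95 in the wild-type arrays and 2.64, 2.65 and 2.90 in the knockout arrays. Knockout replicate 3 lay within the wild-type range and the other knockout arrays below it. The difference of -0.19 ± 0.14 (SE) had an interval of -0.51 to 0.12 (adjusted p = 0.651 in limma). Genes in the same decile of signal had a median difference of -0.061, and the part of brightness in the Clec1b value was not tested.

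Both chains of the fibrinogen receptor were measured. Itga2b, the αIIb chain, is the CD41 antigen and is present from the stem cell stage on. It read 6.54, 6.51 and 6.59 in the wild-type arrays and 6.71, 6.55 and 6.73 in the knockout arrays. Knockout replicate 2 fell inside the wild-type range and the other knockout arrays lay just above it. The difference was 0.12 ± 0.14 (SE), with an interval of -0.20 to 0.43 (adjusted p = 0.806 in limma).

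Itgb3, the β3 chain, also pairs with the αV integrin on other cells. It read 6.11, 6.06 and 5.66 in the wild-type arrays and 5.51, 5.93 and 6.16 in the knockout arrays. The lowest and the highest array were both knockout arrays, so the spread within a genotype exceeded the step between them. The difference was -0.077 ± 0.21 (SE), with an interval of -0.55 to 0.39 (adjusted p = 0.927 in limma). It turned positive when replicate 1 of either genotype was left out, at 0.0053 for the wild type and 0.10 for the knockout.

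Pf4, platelet factor 4, is a chemokine stored in the α-granules, and its promoter is the usual driver of megakaryocyte-restricted Cre. It read 7.18, 7.32 and 7.14 in the wild-type arrays and 7.29, 7.25 and 7.45 in the knockout arrays. The groups overlapped, with knockout replicate 3 highest. The difference was 0.12 ± 0.14 (SE), with an interval of -0.19 to 0.42 (adjusted p = 0.803 in limma). Without knockout replicate 3 it came to 0.057.

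Vwf, the adhesion protein carried in the same granules and made by endothelial cells too, gave the smallest difference of all members. It read 5.86, 5.80 and 5.65 in the wild-type arrays and 6.03, 5.95 and 5.30 in the knockout arrays. The knockout arrays thus held the highest values and also the lowest, with replicate 3 far below the others. The difference was -0.0053 ± 0.21 (SE), with an interval of -0.48 to 0.47 (adjusted p = 0.995 in limma). Without knockout replicate 3 it became 0.22. Leaving out wild-type replicates 1 or 2 gave 0.039 or 0.0094, and array weights gave 0.029. Of 7 endothelial markers, 2 had lower and 5 higher values in the knockout and 0 had an unadjusted p under 0.05. The brightest was Emcn, a sialomucin also found on stem cells, at 5.69 ± 0.54 and 6.18 ± 0.31 (SD, n = 3 each). The endothelial markers' linear signals summed to 138 to 185 in the wild-type and 154 to 195 in the knockout arrays, and their part in the Vwf values was not tested.

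Treml1 encodes TLT-1, a receptor kept in the α-granule membrane of platelets until they are activated. It read 5.94, 5.92 and 5.57 in the wild-type arrays and 5.65, 5.32 and 5.12 in the knockout arrays. Wild-type replicate 3 lay below knockout replicate 1, so the groups overlapped by that pair. The means were 5.81 ± 0.21 and 5.36 ± 0.27 (SD, n = 3 each), a difference of -0.45 ± 0.19 (SE), or 73.4% of the wild-type signal. The interval ran from -0.87 to -0.018, and the adjusted p was 0.475 in limma (unadjusted p = 0.0428). The unadjusted p exceeded 0.05 without wild-type replicate 1 (0.112), wild-type replicate 2 (0.109), knockout replicate 2 (0.0976) or knockout replicate 3 (0.151). The difference without knockout replicate 3 was -0.32.

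Plek encodes pleckstrin, the main protein kinase C substrate of platelets, which is also made by other leukocytes. It was the member with the highest percentile of signal, 97.6, and read 9.18, 9.37 and 9.01 in the wild-type arrays and 9.10, 8.81 and 8.79 in the knockout arrays. As for Treml1, knockout replicate 1 reached into the wild-type range, above wild-type replicate 3, while knockout replicates 2 and 3 lay below it. The difference was -0.29 ± 0.14 (SE), or 82.0% of the wild-type signal, with an interval of -0.59 to 0.020 (adjusted p = 0.502 in limma, unadjusted p = 0.0638). The unadjusted p was 0.0286 when wild-type replicate 3 was left out, 0.0302 for knockout replicate 1, and 0.0346 to 0.0353 after quantile normalization, median centring or cyclic loess. It was 0.103 to 0.217 in limma with any other array left out. Without the trend it was 0.107, with array weights 0.0824 and with a replicate block 0.0741. Without wild-type replicate 2 the difference was -0.19. Since Plek is shared with other leukocytes, their markers are given beside it. Of 8 monocyte and macrophage markers 3 had lower and 5 higher values in the knockout, with summed linear signals of 961 to 1244 in the wild-type and 1136 to 1225 in the knockout arrays. Of 9 neutrophil markers 7 were lower and 2 higher, with sums of 5828 to 6824 and 5736 to 6905. The part of these cells in the Plek values was not tested.

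The promoters of Treml1 and Plek are shown because these genes, with Gp5, had the 3 lowest p-values among the members. The windows are chr17:48359666-48359915 (plus strand) for Treml1 and chr11:17008719-17008968 (minus strand) for Plek, on GRCm38.p6 from RefSeq, each again 250 bases before the start.
Treml1: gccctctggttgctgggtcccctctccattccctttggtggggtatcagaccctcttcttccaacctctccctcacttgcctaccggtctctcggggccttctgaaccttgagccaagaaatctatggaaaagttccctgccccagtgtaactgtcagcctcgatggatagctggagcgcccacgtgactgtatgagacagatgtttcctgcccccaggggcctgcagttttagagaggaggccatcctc
Plek: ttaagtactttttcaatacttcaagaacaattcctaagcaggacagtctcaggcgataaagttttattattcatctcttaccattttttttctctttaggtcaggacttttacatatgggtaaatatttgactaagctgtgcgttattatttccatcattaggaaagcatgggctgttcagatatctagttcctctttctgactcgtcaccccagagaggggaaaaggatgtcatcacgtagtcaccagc
Neither window has a capital, since neither held a GATA or ETS match as spelled above. This says only that those letters are not in these windows, and so Gp5, Treml1 and Plek shared neither motif. Clec1b, another member lower in the knockout, held a GATA match. No window was at hand for Itgb3 (-0.077) and Vwf (-0.0053), which were lower by sign only and turned in some of the alternatives.

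**Figure D2:**
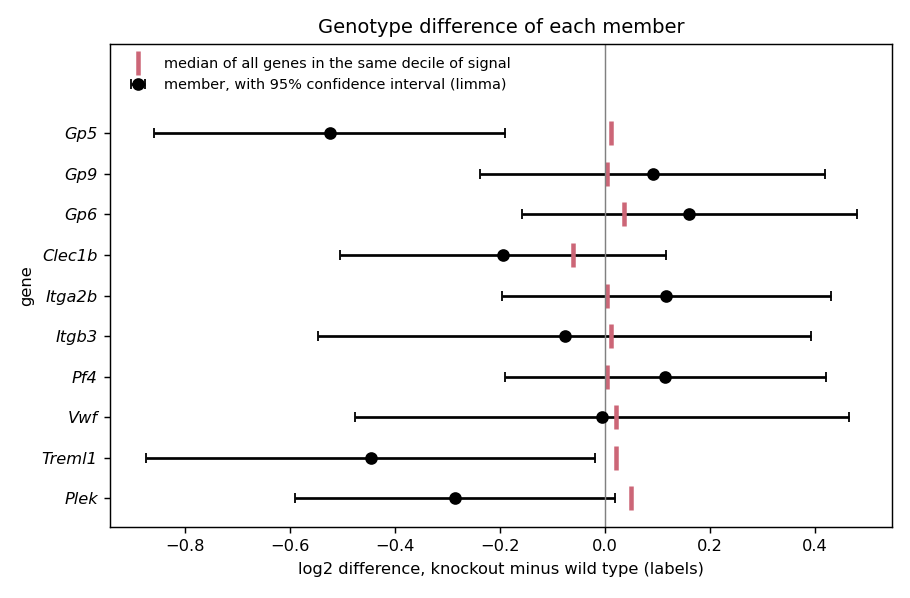
Difference between knockout and wild type in log2 units (horizontal axis) for each member, with the 95% confidence interval from limma as black bars and, in red, the median difference of all genes in the same decile of signal. The intervals of Gp5 (-0.86 to -0.19) and Treml1 (-0.87 to -0.018) leave out 0, and those of the other 8 members include it.

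Set against all genes, the difference of Gp5 lay at percentile 2.53 and that of Treml1 at 4.37 of the 22180 differences, with Plek at 12.6 and Clec1b at 20.6. Pf4, Itga2b, Gp6 and Gp9 lay at percentiles 65.4 to 75.6. The remaining members, Vwf and Itgb3, lay at 49.1 and 36.7. Fold changes on these arrays also moved with brightness, with a median of -0.17 in the dimmest decile of genes and 0.063 and 0.064 in the fifth and sixth. The deciles that held Gp5, Treml1 and Plek had medians of 0.012, 0.022 and 0.049. The part of brightness in the differences of these members was not tested. Of the members, 2 lay under the 40th percentile of signal, Gp6 and Clec1b. Brightness depends on the probes as well as on the RNA, so these percentiles do not rank the members by amount of transcript.

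**Figure D3:**
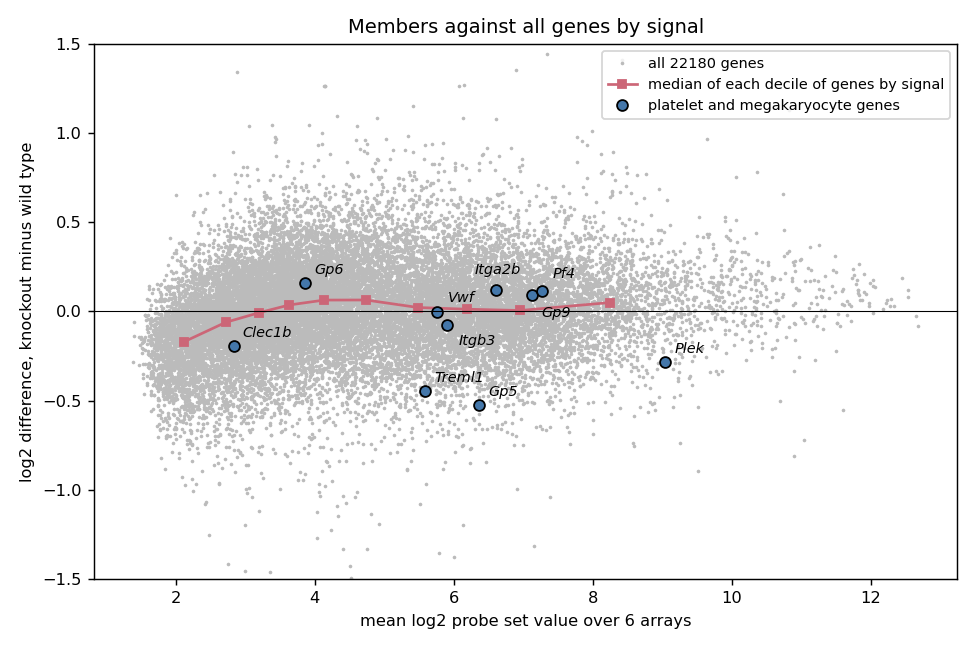
Difference between knockout and wild type (vertical axis, log2) against mean log2 signal over the 6 arrays (horizontal axis) for all 22180 genes (grey), the median of each decile of genes by signal (red) and the members (blue); 13 genes lie outside the vertical range of ±1.5. Gp5, Treml1 and Plek lie below the red line at moderate to high signal, and the other members lie nearer to it.

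Averaged over the members, all knockout arrays lay below all wild-type arrays, though knockout replicate 1 only just. Members of both signs enter this average, and it was not tested. The mean deviation of the 10 members from their own averages was 0.076, 0.091 and -0.010 on the wild-type arrays and -0.020, -0.055 and -0.082 on the knockout arrays. Knockout replicate 3 held the highest value of 3 members (Itga2b, Itgb3 and Pf4) and the lowest of 3 others (Vwf, Treml1 and Plek). Knockout replicate 1 was lowest for 3 members (Gp5, Itgb3 and Clec1b). Among 10248 other named genes brighter than the median gene, the profiles most like this mean over the 6 arrays were those of Leprotl1 (Pearson r = 0.993), Impdh1 (0.982), Ptov1 (0.981), Fhod1 (0.979) and Slc39a9 (0.977). Of the 10248 genes 144 had r above 0.9 over these 6 arrays, and none of the 5 was in the lists of platelet genes examined here. All 5 were lower in the knockout, by -0.33 (Fhod1) to -0.14 (Ptov1). Their likeness is to the average alone, since the members did not share a profile. Pairs of members had Pearson r from -0.78 (Gp6 and Plek) to 0.94 (Treml1 and Plek).

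The wider platelet and megakaryocyte programme was followed in 54 measured genes of a list of 61. Of these, 29 were lower and 25 higher in the knockout, with a median difference of -0.011, or 33 to 34 lower after quantile normalization, median centring or cyclic loess. None passed the adjusted threshold in limma. The groups did not overlap for 2 genes on the lower side and 3 on the higher side, beside 8.37% and 7.75% of all genes. F2r and Cd36 on the lower side and P2ry12 on the higher side had an unadjusted p under 0.05 and 51 genes did not, where 10.3% of all genes did. Only P2ry12 kept it without wild-type replicate 1 or knockout replicate 2, and none of the 3 kept it without knockout replicate 1. Without wild-type replicate 2 F2r and P2ry12 kept it, without wild-type replicate 3 Cd36 alone, and with knockout replicate 3 left out F2r alone. A filter on dim genes removed Cd36 and P2ry12.

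Among the receptors for soluble platelet agonists, 4 of 7 were lower and 3 higher. F2r, the thrombin receptor PAR1, read 9.48, 9.24 and 9.40 in the wild-type arrays and 9.09, 8.99 and 9.18 in the knockout arrays. All its knockout arrays lay below the wild-type arrays, as for 8.37% of all genes. The difference was -0.29 ± 0.11 (SE, adjusted p = 0.434 in limma). Whether F2r acts on mouse platelets was not examined here. The related genes F2rl2 and F2rl3 (PAR3 and PAR4) had -0.088 ± 0.32 and 0.17 ± 0.15 (SE), with overlapping groups. P2ry12, the ADP receptor that clopidogrel blocks, was dim, at 3.18, 3.04 and 2.78 against 3.48, 3.30 and 3.58. It lay higher in all 3 knockout arrays, as for 7.75% of all genes. The step was 0.45 ± 0.16 (SE, adjusted p = 0.410 in limma), at percentile 25.7 of signal. The gene of the other platelet ADP receptor, P2ry1, had 0.42 ± 0.25 (SE) with overlapping groups, and 0.13 when wild-type replicate 1 was left out.

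Integrin activation, the step that readies αIIbβ3 for fibrinogen, was represented by 7 genes, 4 lower and 3 higher (5 and 2 after each of those scalings), none with an unadjusted p under 0.05. Fermt3, which encodes kindlin-3, differed by -0.028 ± 0.12 (SE), and the smallest p-values were those of Apbb1ip (RIAM, a Rap1 effector) at 0.29 ± 0.16 (SE) and the collagen integrin gene Itga2 at 0.17. Of 8 genes that carry the signal from glycoprotein VI and CLEC-2, 2 were lower and 6 higher, again none with an unadjusted p under 0.05. Lcp2, the adaptor SLP-76, had 0.32 ± 0.16 (SE), and Fcer1g, the γ chain that pairs with glycoprotein VI, had 0.24 ± 0.20 (SE). With median centring this group stood at 3 lower and 5 higher. Of the inhibitory receptors, Ceacam1 differed by 0.42 ± 0.19 (SE) and Pecam1 by 0.013, and the sign of Pecam1 turned under quantile normalization, median centring and cyclic loess.

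Granule proteins were lower in 8 of 9 cases, by small amounts: their median was -0.025 and none had an unadjusted p under 0.05. Ppbp, the platelet basic protein precursor, was the exception at 0.29 ± 0.20 (SE), and Sparc had -0.19 ± 0.18 (SE). Selp, P-selectin, was at 7.51 in both groups. The eicosanoid enzyme genes Alox12 and Tbxas1 had -0.074 and -0.026. Of 4 cytoskeletal genes, 3 were lower and 1 higher, with Myh9 (non-muscle myosin heavy chain) at -0.20 ± 0.15 (SE) and Flna (filamin A) at -0.19 ± 0.15 (SE). Tubb1, the tubulin of mature megakaryocytes and platelets, was dim at percentile 23.5, with 3.16 ± 0.51 and 3.09 ± 0.45 (SD, n = 3 each). Of 5 further surface genes 4 were lower and 1 higher. Cd36, a thrombospondin and fatty acid receptor also found on other cells, read 3.59, 3.69 and 3.33 in the wild-type arrays and 3.25, 3.14 and 3.18 in the knockout arrays. All its knockout arrays lay below the wild-type arrays, as for 8.37% of all genes. The difference was -0.35 ± 0.15 (SE, adjusted p = 0.479 in limma) at percentile 28.8 of signal.

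The transcription factors that build the lineage showed no call either, with 2 of 10 lower, 8 higher and 0 at an unadjusted p under 0.05. After quantile normalization, median centring or cyclic loess the split was 4 lower and 6 higher. Etv6, an ETS-family repressor, differed by 0.20 ± 0.11 (SE) and Gfi1b, a repressor needed for megakaryocyte and erythroid maturation, by 0.36 ± 0.21 (SE). Gfi1b read 7.55, 7.79 and 7.71 against 7.55, 8.46 and 8.11, and without knockout replicate 2 it came to 0.15. Fli1, the ETS activator of many platelet genes, was at 8.87 ± 0.025 and 8.99 ± 0.0077, and Zfpm1 (FOG-1, the partner of GATA1) at 7.23 ± 0.043 and 7.34 ± 0.043 (SD, n = 3 each). For these last 2 genes all knockout arrays were above all wild-type arrays, as for 7.75% of all genes. The differences were 0.12 ± 0.10 for Fli1 and 0.12 ± 0.13 for Zfpm1 (SE, adjusted p = 0.688 and 0.785 in limma). After those scalings they were 0.070 to 0.077 for Fli1 and 0.062 to 0.10 for Zfpm1. Gata1 itself differed by -0.047 ± 0.18 (SE). Gata2 had 0.0072 and Runx1 0.00071, and these were the factors whose sign turned under the scalings.

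**Figure D4:**
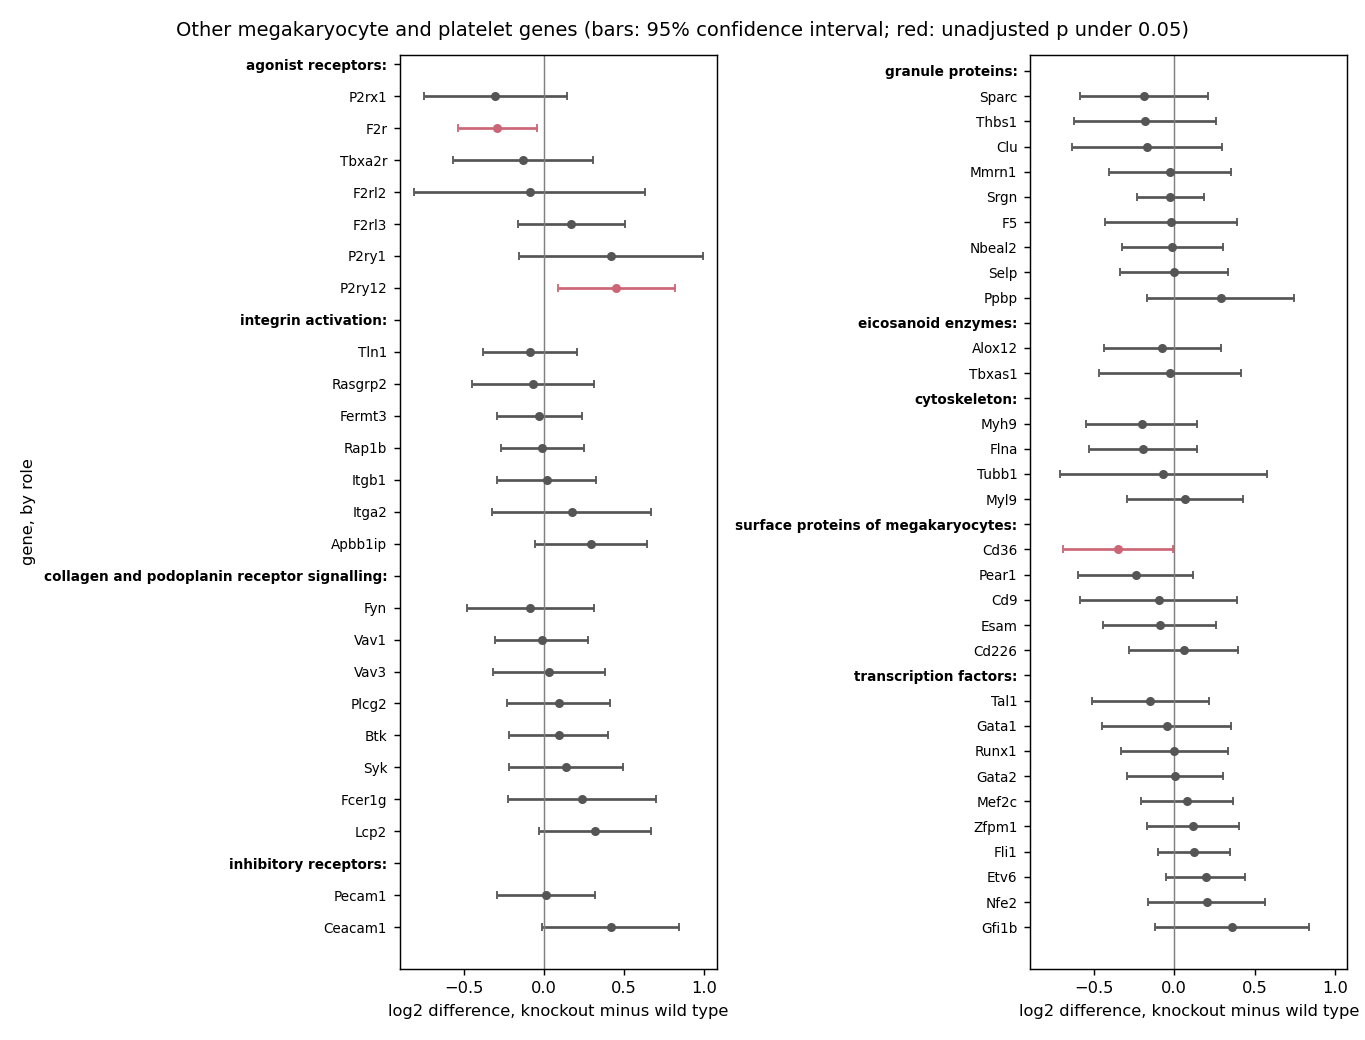
Difference between knockout and wild type in log2 units (horizontal axis) for the 54 other megakaryocyte and platelet genes, grouped by role (vertical axis), with 95% confidence intervals from limma as bars. The 3 genes with an unadjusted p under 0.05 are red: F2r and Cd36 on the lower side and P2ry12 on the higher side.

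Markers of cells that share these genes or could enter the sort were read in the same arrays. Erythroid genes, from the lineage that shares its progenitor with megakaryocytes, were lower in 5 of 7 cases and higher in 2, with 0 at an unadjusted p under 0.05. Their linear signals summed to 1226 to 1362 in the wild-type and 1065 to 1277 in the knockout arrays, and the brightest, Car2, differed by -0.20 ± 0.14 (SE). Among 8 measured LSK markers, Hlf, a stem cell transcription factor, was at 7.79 ± 0.071 and 7.47 ± 0.12 (SD, n = 3 each), and the other 7 had an unadjusted p above 0.05. Mmp8, a neutrophil collagenase, differed by -0.85 ± 0.24 (SE, adjusted p = 0.354 in limma). Like Gp5 it was lower in all 3 knockout arrays, as for 8.37% of all genes. S100a8, the brightest neutrophil marker, had -0.065. Of 7 mast cell and basophil genes 6 were lower and 1 higher, with sums of 284 to 370 and 312 to 382. Ms4a2, the β chain of the IgE receptor, had -0.57 ± 0.22 (SE) at percentile 35.0 of signal, and the brightest, Cpa3, -0.020. Of these 7 genes 4, Ms4a2 among them, lay under the 40th percentile of signal. In the monocyte and macrophage list the complement genes C1qa and C1qb had opposite signs, 0.52 ± 0.17 and -0.51 ± 0.16 (SE), and Lyz2, the brightest, had -0.077. None of these markers passed the adjusted threshold in limma, and their part in the values of Gp5 and Treml1 was not tested.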

How the data were processed

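RNA of sorted LSK cells was measured on 6 arrays, 3 per genotype label. The authors deposited log2 probe set values for 41345 probe sets, made with Affymetrix Expression Console per the submitters' processing notes. Background correction, summary method, normalization and version were not given in those notes or in other sources used here. The values ran from 0.83 to 13.5, with array medians of 4.05 to 4.10, so no further normalization was applied. Methods that equalise arrays hide changes in total RNA. The number of arrays limits the precision.

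The platform annotation named the probe sets: 23521 had 1 symbol, 1814 had several and were left out, and 16010 stay unnamed. The probe set with the highest mean stood for a gene, giving 22180 genes. Differences were tested with limma 3.58.1 (R 4.3.3; lmFit, eBayes with trend, two-sided, genotype as the only term). The pipeline was tested on simulated data. Promoter windows came from RefSeq (GRCm38.p6), cut to the 250 bases before the start.

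The members and lists were chosen with earlier results of these data known, so no list was tested as a set. Named are all members; in each pathway role the genes at an unadjusted p under 0.05, otherwise the 2 with the smallest p; of each marker list the brightest gene and any under 0.05; Tifab; and the 5 genes with the most similar profile. Kit, Slamf1, Fermt3, Selp, Tubb1, Fli1, Zfpm1, Gata1, Gata2, Runx1, P2ry1, F2rl2 and F2rl3 were chosen with their values known. The alternatives tried were 3 scalings (quantile, median centring and cyclic loess), a filter at the 40th percentile of signal, array weights, eBayes robust or untrended, probe sets averaged per gene or each tested alone, a replicate block, and each array left out.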

Additional observations from a re-analysis of the deposited data

How the results depend on the processing

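Of 158 member differences recomputed under the alternatives, 152 kept their direction and 6 turned, all for Itgb3 and Vwf, and no member passed the adjusted threshold in any. A direction could turn only with the 3 scalings, array weights or 1 array left out. The other alternatives change a member's p-value but not its difference, so they say nothing about direction. With 1 array left out, Itgb3 ran from -0.23 to 0.10 and Vwf from -0.14 to 0.22; with array weights Vwf was 0.029. Members lower at an unadjusted p under 0.05 numbered 2, or 1 with array weights, 3 with each of the 3 scalings and 1 to 3 with 1 array left out, and Gp5 was under 0.05 in every setting. Their median difference was -0.12 to 0.0074 with 1 array left out. For all genes, leaving out 1 array gave 0 or 1 adjusted call (1 without wild-type replicate 3 or knockout replicate 2, neither a member), and the filter on dim genes left 1218 at an unadjusted p under 0.05. Pathway genes at an unadjusted p under 0.05 numbered 3, or 1 with that filter, 4 with array weights and 1 to 4 with 1 array left out. Those on the lower side numbered 2, or 1 with the filter, 1 without the trend and 0 to 2 with 1 array left out. The pathway median was -0.037 with quantile normalization, -0.065 with median centring, which moves all genes by -0.055, -0.037 with cyclic loess, and -0.0070 to 0.015 with 1 array left out. With the replicate number as a block, 1 pathway gene was on the lower side at an unadjusted p under 0.05, 2119 genes in all were under 0.05 and 0 passed the adjusted threshold. Same-numbered arrays correlated at 0.020, -0.031 and -0.088 in their deviations. No pairing by number was seen, though these values cannot exclude one. The cause of these shifts was not tested. Gp6 and Clec1b lie near the floor of the array, where a difference could be hidden.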
